A study of Mus musculus with 5 samples.

Results

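ATF4 and 9 genes of the amino acid stress response were examined in HT22 cells after knockdown (KD) of the long non-coding RNA GAS5. The 10 genes were listed by name and not by a cut on any measured value, but with earlier results of these data known. They are Atf4, Ddit3, Trib3, Chac1, Asns, Psat1, Phgdh, Shmt2, Mthfd2 and Slc3a2, of 55487 genes in the counts table. All 10 had reads in every library and passed the filter on low counts. HT22 is an immortalised line derived from mouse hippocampus, and all libraries come from this single line. The cells were transfected for 48 h with 10 nM of siRNA by means of the reagent INTERFERin, and their mRNA was sequenced. There was 1 library from GAS5 siRNA210, 2 libraries came from GAS5 siRNA596, and 2 came from negative control (NC) siRNA. The treatment label calls the NC samples untreated, whereas their titles name NC, and the study's methods give NC siRNA. Nothing in the labels says that replicates were separate cultures, so the *P*-values below measure only the spread between these libraries.

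The library totals ran from 30660265 to 36492134 counts. Gas5, the target of both siRNAs, was at 90.4 and 76.0 CPM (counts scaled to the normalized library size) in NC replicates 1 and 2, at 59.7 with siRNA210 and at 65.9 in siRNA596 replicate 1. In the library labelled siRNA596 replicate 2 it was at 179 CPM, above both NC libraries, which goes against the label. That library also stood apart in general, with 3430 of 10574 genes of at least 5 CPM (32.4%) more than 2-fold from the mean of the other 4. Each comparison is therefore given first for the 4 similar libraries (siRNA210 and siRNA596 replicate 1 as KD, NC replicates 1 and 2) and then for all 5. The label also describes the cells as hippocampal neuronal. Of 8 neuronal markers, Map2 (833 to 3336 counts) and Tubb3 (497 to 970 counts) were present, whereas Nefl, Nefm, Dcx and Snap25 were at 0 in every library, Rbfox3 had at most 2 counts and Syp at most 15. The progenitor genes Nes and Vim were high in every library, at 12449 to 18195 and 97781 to 115117 counts, and Sox2, the other progenitor marker, was at 0 in each.

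The integrated stress response starts when a kinase such as GCN2, which senses uncharged tRNA, or PERK, which senses unfolded protein in the endoplasmic reticulum, phosphorylates the translation factor eIF2alpha. General protein synthesis then slows, while the mRNA of the transcription factor ATF4 is translated more. ATF4 binds C/EBP-ATF response elements, often together with C/EBP partners, and raises genes for the synthesis, import and tRNA charging of amino acids, as well as genes such as Ddit3 and Trib3 that act in prolonged stress. Since ATF4 is controlled mainly through its translation, the level of Atf4 mRNA is not a measure of ATF4 protein, which was not measured in these libraries.

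Promoter sequences from RefSeq (GRCm38.p6) were searched for the core of this response element, written TGATGNAAN, on either strand between 250 bases before and 50 bases after the start of each gene. All 10 genes had an entry, and 3 of them held a match (Asns, Chac1 and Trib3), against 3.95% of the 32851 promoters in the table and 4.5% of its 27025 genes. The match in Trib3, TTTACATCA, lies after the RefSeq start. A different sequence, TGGTGCAAT, was picked out of the promoters of Trib3 and Psat1 themselves. It is found in 0.11% of all genes, and because of how it was picked nothing can be read from its presence in these 2. The Chac1 and Asns stretches are shown because they match the element before the start, and the Trib3 and Psat1 stretches because they share the other sequence. The capitals mark the letters searched, each is read on the strand of the gene, and 10 bases are given on either side.
Chac1: cttccctgccGTTGCATCActcctgccag
Asns: cccagccacaTGATGAAACttcccgcacg
Trib3: gggtcacagaTGGTGCAATcccgggccgc
Psat1: cgcgggtggcTGGTGCAATcccctgctct
The Chac1 stretch is at chr2:119351038-119351066 on the plus strand, and its match begins 194 bases before the start and reads on the opposite strand. The Asns stretch is at chr6:7693214-7693242 on the minus strand, 23 bases before the RefSeq start, and the GENCODE M21 annotation places it in the 5′ untranslated part of an Asns exon. The Trib3 stretch is at chr2:152344075-152344103 on the minus strand, 33 bases before the start and outside any GENCODE exon of the 10 genes. The Psat1 stretch is at chr19:15925177-15925205 on the minus strand, 136 bases before the RefSeq start and within the span of the longer GENCODE gene but not in its exons. A match of letters is a description of the sequence, and binding was not measured here.

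Levels of the 10 genes were compared per length, as FPKM (CPM divided by the merged exon length in kilobases), over the 4 similar libraries. By this measure Phgdh was the highest at 163 ± 10.4 FPKM (SD, n = 4) and Ddit3 the lowest at 20.1 ± 4.38 FPKM, a ratio of 8.12. Between them stood Atf4 at 146 ± 8.66, Psat1 at 105 ± 4.96, Shmt2 at 101.4 ± 3.57, Slc3a2 at 84.8 ± 10.7, Asns at 42.9 ± 3.09, Chac1 at 28.9 ± 4.60, Mthfd2 at 25.1 ± 1.14 and Trib3 at 24.0 ± 5.28 FPKM. The ranges of Psat1 and Shmt2 overlapped, and so did those of each pair of neighbours among the lowest 4 genes, so their order is not larger than the spread between libraries. The order also rests on the length used. Merged exons and longest transcript had 1713 and 969 bases in Ddit3, 3487 and 2085 in Mthfd2, and 4254 and 2617 in Psat1. They had 2125 and 2026 bases in Trib3, and 1637 each in Chac1. Dividing by the longest transcript would raise Ddit3, Mthfd2 and Psat1 relative to Chac1 and Trib3. Ddit3 would then not be the lowest, so its place and the ratio of 8.12 hold for merged exons only. The spread among the 4 libraries was widest for Trib3 and Ddit3, with coefficients of variation of 22.0% and 21.8%, and narrowest for Shmt2 at 3.52%.

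None of the 10 genes passed the test for a change between GAS5 KD and NC. Gas5, the target, did not pass after adjustment either. With 4 libraries its log2 fold change was -0.41 ± 0.11 (SE), with an edgeR unadjusted *P* of 0.0038 and adjusted *P* of 0.967. With all 5 it was 0.29 ± 0.53 (SE), above 0, with an edgeR adjusted *P* of 0.963. The 4 libraries were set apart with the Gas5 level of the remaining library known. The Gas5 value of the 4 is therefore no independent check of the knockdown. In RNA from whole cultures, fewer cells that express a gene and less of its RNA per cell cannot be told apart. In the 4 libraries the log2 fold changes of the 10 genes, KD over NC, lay between -0.07 (Phgdh) and 0.26 (Ddit3). Their median was 0.05, against -0.0023 over the 15867 genes tested. By edgeR's quasi-likelihood test with Benjamini-Hochberg adjustment the smallest adjusted *P* among them was 0.967. None passed an unadjusted *P* of 0.05, which 523 of all genes (3.30%) did, or that threshold together with a 2-fold change, which 139 genes (0.876%) did. Adjusted *P*-values under 0.05 were found for 0 of all genes (0%) by edgeR. DESeq2's Wald test gave 1 such gene, 368 genes at the unadjusted threshold and 0 of the 10. With all 5 libraries 9 of the 10 log2 fold changes were above 0, beside 8238 of the 16142 genes tested. All 10 genes belong to the 2 shortest quintiles of transcript length. In the library labelled siRNA596 replicate 2 these quintiles had median log2 ratios of 1.05 and 0.39 to the other 4, and the part of length was not tested. The median log2 fold change of the 10 was 0.21 against 0.01 over all genes, and again 0 of 10 passed. The background was then 60 genes (0.372%) at the unadjusted threshold, 57 genes (0.353%) with the 2-fold change added, and 0 genes (0%) after adjustment in edgeR, while DESeq2 gave 87 unadjusted and 0 adjusted. The fit of siRNA596 alone against NC included the library labelled siRNA596 replicate 2. Gas5 had a log2 fold change of 0.56 ± 0.52 (SE) in this fit, above 0. Here also 0 of 10 had an unadjusted *P* under 0.05 in edgeR, beside 41 of 15827 genes (0.259%). DESeq2 gave 0 of the 10 and 390 genes there.

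**Figure D1:**
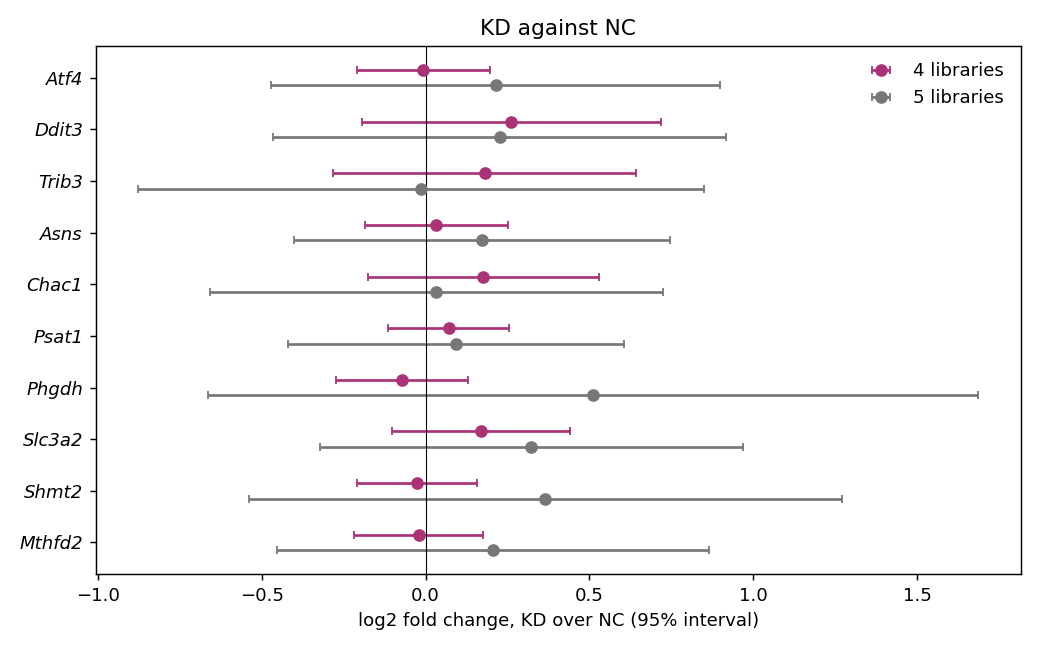
Log2 fold change of each gene, KD over NC (horizontal axis), with its 95% interval from the edgeR fit, for the 4 similar libraries and for all 5. Every interval includes 0, and the 5-library intervals are wider for each gene.

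The intervals give the changes that the fit allowed from the spread between these libraries, and do not bound what separate cultures would show. For Atf4 the 95% interval of the log2 fold change was -0.21 to 0.20 with 4 libraries, and for Psat1, Phgdh, Shmt2, Mthfd2 and Asns no bound lay further from 0 than -0.27 or 0.26. For Ddit3 the interval reached 0.72, for Trib3 0.64, for Chac1 0.53 and for Slc3a2 0.44. With 5 libraries the bounds of Atf4 were -0.47 and 0.90, and those of Phgdh -0.66 and 1.69. No gene had both KD libraries above both NC libraries, as 17.2% of genes of at least 5 CPM did, and none had both below, as 15.7% did.

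Atf4 (ENSMUSG00000042406, chr15:80255184-80257541, plus strand, GRCm38) encodes the central transcription factor of the response. Its levels were 355 CPM in NC replicate 1, 334 in NC replicate 2, 366 with siRNA210 and 321 in siRNA596 replicate 1, and 513 in the library labelled siRNA596 replicate 2. The KD libraries lay on either side of the NC libraries, with means of 344 ± 32.1 CPM in KD and 345 ± 14.7 CPM in NC (SD, n = 2 each). Its log2 fold change was -0.01 ± 0.09 (SE; edgeR adjusted *P* = 0.998) with 4 libraries and 0.21 ± 0.28 (adjusted *P* = 0.963) with 5.

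**Figure D2:**
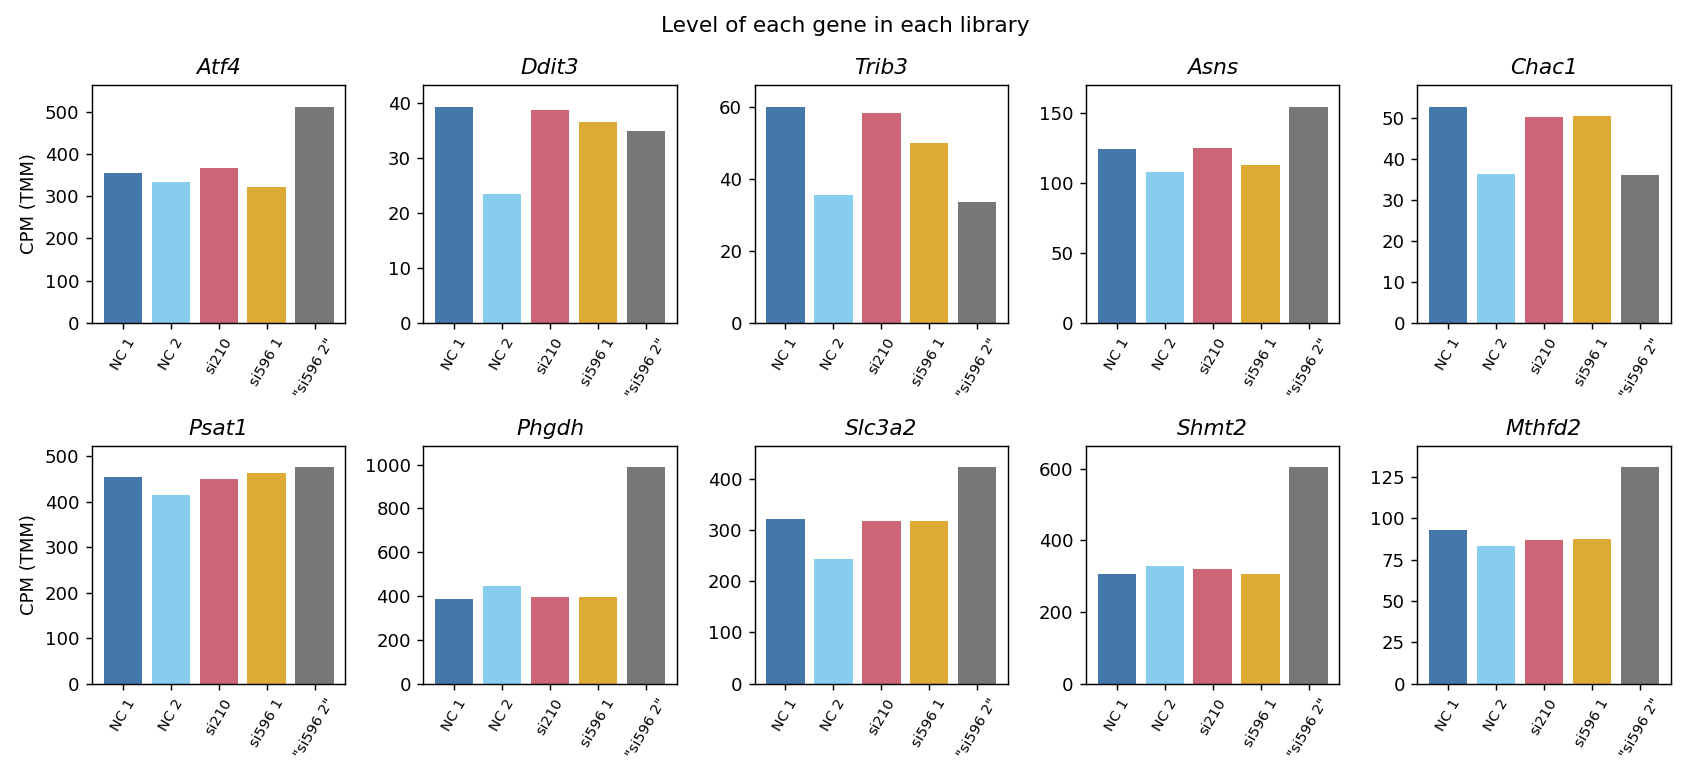
CPM after TMM normalization (vertical axes, each from 0) of the 10 genes in each library; NC 1 and NC 2 are the NC replicates, si210 and si596 1 the KD libraries, and "si596 2" the library labelled siRNA596 replicate 2. Ddit3, Trib3 and Chac1 are low in NC 2 beside NC 1, si210 and si596 1, and Phgdh, Shmt2, Mthfd2 and Atf4 are highest in the last library.

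Downstream of ATF4, Ddit3, Trib3 and Chac1 act in the stress response itself. Ddit3 (ENSMUSG00000025408, chr10:127290774-127296288, plus strand) encodes CHOP, a transcription factor of prolonged stress that can favour cell death. It was at 39.3 CPM in NC replicate 1 and 23.4 in NC replicate 2, at 38.6 with siRNA210, at 36.6 in siRNA596 replicate 1 and at 34.8 in the library labelled siRNA596 replicate 2. All 3 siRNA libraries thus lay between the NC libraries, and the log2 fold change of 0.26 ± 0.20 (SE) with 4 libraries had an edgeR adjusted *P* of 0.967. Ddit3 shares 105 exon bases with a second identifier of the same name on the same strand, which had 0 counts in every library, and 68 with Mars1 on the other strand. Reads in these stretches may not be separable, and the strand setting of the counting is not given in the sources used here.

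Trib3 (ENSMUSG00000032715, chr2:152337422-152344032, minus strand) encodes a pseudokinase that is induced by ATF4 and CHOP and restrains them in turn. Its levels were 60.1 and 35.5 CPM in NC replicates 1 and 2, 58.3 with siRNA210, 49.98 in siRNA596 replicate 1 and 33.6 in the library labelled siRNA596 replicate 2. The NC libraries spanned both KD libraries of the 4, and the remaining library was below them all. The log2 fold change was 0.18 ± 0.20 (SE; edgeR adjusted *P* = 0.974) with 4 libraries and -0.01 ± 0.35 with 5, so its sign changed with that library. Chac1 (ENSMUSG00000027313, chr2:119351229-119354381, plus strand) encodes an enzyme that degrades glutathione. It was at 52.7 and 36.2 CPM in NC, at 50.04 with siRNA210 and 50.4 in siRNA596 replicate 1, and at 35.9 CPM in the library labelled siRNA596 replicate 2, close to NC replicate 2.

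Asns and Slc3a2 serve the supply of amino acids. Asns (ENSMUSG00000029752, chr6:7675169-7693254, minus strand), which encodes asparagine synthetase, was at 124 and 108 CPM in NC, at 125 with siRNA210, at 113 in siRNA596 replicate 1 and at 155 in the library labelled siRNA596 replicate 2. Slc3a2 (ENSMUSG00000010095, chr19:8706882-8723369, minus strand) encodes the heavy chain that carries amino acid exchangers such as SLC7A11 and SLC7A5 to the membrane. It was at 320 CPM in NC replicate 1 but 242 in NC replicate 2, at 317 with siRNA210 and again 317 in siRNA596 replicate 1, and at 422 in the library labelled siRNA596 replicate 2. The KD libraries of Slc3a2 differed from each other by an SD of 0.674 CPM, whereas the NC libraries differed by an SD of 55.1 CPM.

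Psat1, Phgdh, Shmt2 and Mthfd2 make serine and pass its carbon to folate in mitochondria. Psat1 (ENSMUSG00000024640, chr19:15904678-15947337, minus strand) encodes phosphoserine aminotransferase and was the steadiest over all 5 libraries, at 454 and 415 CPM in NC, 451 with siRNA210, 463 in siRNA596 replicate 1 and 476 in the library labelled siRNA596 replicate 2. Phgdh (ENSMUSG00000053398, chr3:98313170-98339990, minus strand) encodes the enzyme that commits glycolytic carbon to serine. Its levels were 387 and 444 CPM in NC, 397 with siRNA210, 395 in siRNA596 replicate 1 and 988 in the library labelled siRNA596 replicate 2. Of its 50-base words, 47.8% also occur in transcripts of 20 other annotated genes, so part of its reads may be lost or shared in counting and its level is uncertain. For the other 9 genes this share was at most 3.42%.

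Shmt2 (ENSMUSG00000025403, chr10:127517123-127522444, minus strand), the mitochondrial serine hydroxymethyltransferase, was at 307 and 330 CPM in NC, at 319 with siRNA210, at 306 in siRNA596 replicate 1 and at 605 in the library labelled siRNA596 replicate 2. Mthfd2 (ENSMUSG00000005667, chr6:83305691-83325908, minus strand), a mitochondrial folate dehydrogenase and cyclohydrolase, was at 93.0 and 83.4 CPM in NC, at 86.7 with siRNA210, at 87.4 in siRNA596 replicate 1 and at 131 in the library labelled siRNA596 replicate 2. Shmt2 shares 32 exon bases with Ndufa4l2 on the other strand. For both genes the KD libraries of the 4 were within or at the edge of the NC range, and the remaining library was well above it. Their log2 fold changes with 4 libraries were -0.03 ± 0.08 and -0.02 ± 0.09 (SE), with edgeR adjusted *P*-values of 0.981 and 0.988.

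Among the 4 similar libraries the NC replicates differed by more than the KD libraries did for 9 of the 10 genes, Atf4 being the exception, as for 65.9% of all genes. NC replicate 2 was the highest or lowest of the 4 for the same 9, as for 71.7% of all genes. It held 59.0% of the Trib3 level of NC replicate 1, 59.4% of Ddit3, 68.7% of Chac1 and 75.7% of Slc3a2. For Asns the share was 86.6%, for Mthfd2 89.7%, for Psat1 91.5% and for Atf4 94.1%, while Shmt2 and Phgdh were higher in NC replicate 2, at 107% and 115%. The shares thus ran from a deficit in Trib3, Ddit3, Chac1 and Slc3a2 to a higher level in Shmt2 and Phgdh. On the log2 scale the ratio was -0.76 for Trib3 with a 95% counting interval (Clopper-Pearson) of -0.86 to -0.66, and -0.75 for Ddit3 with an interval of -0.87 to -0.63. These intervals cover counting error only, and with 1 library on each side there is no test of the difference.

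Ddit3 and Trib3 were lower in NC replicate 2 by more than 1.5-fold, as were 2.87% of the 10574 genes of at least 5 CPM, and none of the 10 was higher by that much. NC replicate 2 was the lowest of the 4 libraries for 7 of the 10 genes, against 36.7% of all genes. For 10 of 10 the NC libraries differed from each other by more than the KD mean differed from the NC mean, as for 69.4% of all genes, and NC replicate 1 was closer to the siRNA210 library than to NC replicate 2 for 10 of 10, against 63.8%. The siRNA210 library held between 93.3% and 104% of the level of NC replicate 1 in the 10 genes, and siRNA596 replicate 1 between 83.2% and 102%.

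**Figure D3:**
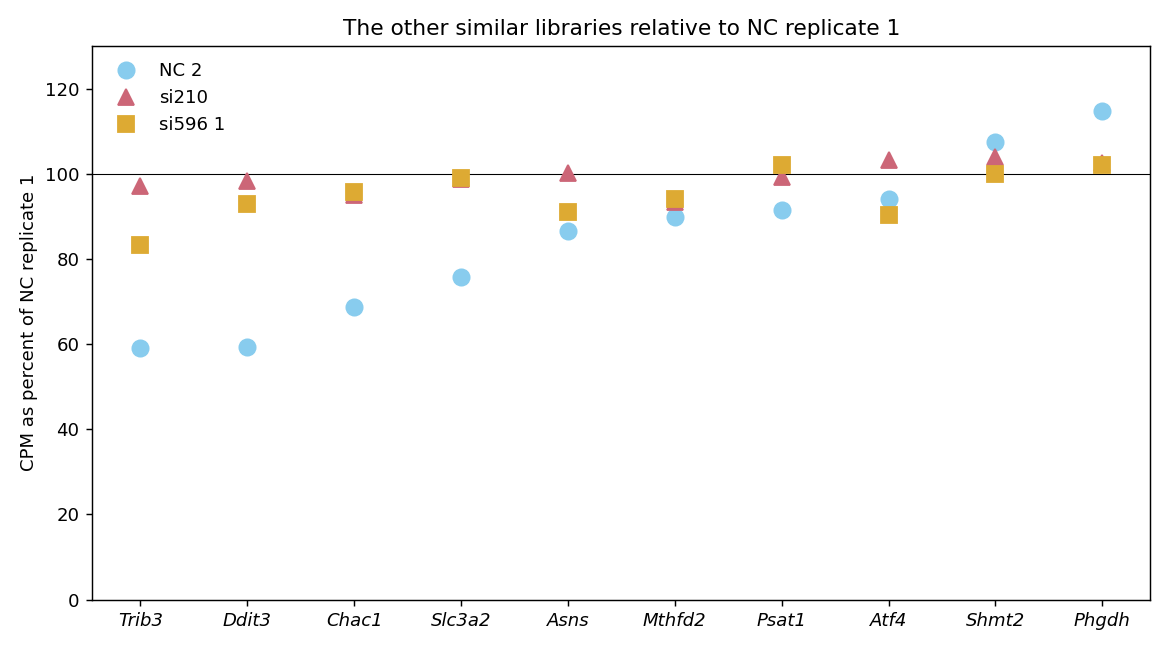
CPM of NC replicate 2, siRNA210 and siRNA596 replicate 1 as a percent of NC replicate 1 (vertical axis, from 0) for each gene, ordered by NC replicate 2. The NC 2 points rise from 59.0% for Trib3 to 115% for Phgdh, and the siRNA points stay between 83.2% and 104%.

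The comparison with KD changed with the NC library used. With NC replicate 1 left out, so that both KD libraries of the 4 were set against NC replicate 2 alone, 5 of the 10 genes had an unadjusted *P* under 0.05 in edgeR, against 16.5% of 16873 genes. Ddit3 (log2 fold change 0.68 ± 0.09 SE), Trib3 (0.61 ± 0.13), Chac1 (0.47 ± 0.07) and Slc3a2 (0.38 ± 0.05) were then higher in KD and Phgdh (-0.17 ± 0.05) was lower. Their edgeR adjusted *P*-values ran from 0.207 to 0.278, and no gene of the whole table passed after adjustment. With NC replicate 2 left out instead, 0 of 10 passed at the unadjusted threshold in edgeR, against 2.52% of 16763 genes. The log2 fold changes of Ddit3, Trib3, Chac1 and Slc3a2 then changed sign, to -0.06, -0.15, -0.07 and -0.01. In both fits the lone NC library is assumed to vary as the KD libraries do.

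The library labelled siRNA596 replicate 2 showed a different picture of the same genes. Relative to the mean of the other 4 libraries, Phgdh was 2.43-fold, Shmt2 1.92-fold, Mthfd2 1.49-fold and Atf4 1.49-fold as high, with Slc3a2 at 1.41-fold and Asns at 1.32-fold. Psat1 at 1.07-fold and Ddit3 at 1.01-fold were near the others, and Chac1 at 0.759-fold and Trib3 at 0.659-fold were below them. The library was the highest of 5 for 7 of the 10 genes, against 45.4% of all genes, and the lowest for Trib3 and Chac1, against 44.4%. Phgdh alone was past 2-fold, as were 32.4% of all genes of at least 5 CPM, and when length and GC content were fitted as offsets Trib3 was past it instead. Set against NC replicate 2, it held 94.7% of the Trib3 level and 99.2% of the Chac1 level, but 149% of Ddit3 and 222% of Phgdh.

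In this library the ratio to the other 4 moved with transcript length over all genes, with a Spearman correlation of -0.694 across 10568 genes of the same libraries. Genes in the shortest quintile by their longest transcript had a median log2 ratio of 1.05, those in the next quintile 0.39, and those in the longest quintile -0.99. Phgdh, Chac1 and Ddit3 belong to the shortest quintile and the other 7 to the next. Phgdh was 0.23 above the median of its quintile on the log2 scale, Shmt2 0.55, Mthfd2 0.19, Atf4 0.19, Slc3a2 0.11 and Asns 0.01. Psat1 was 0.29 below the median of its quintile, Trib3 0.99, Ddit3 1.04 and Chac1 1.45 below. Ddit3, Trib3 and Chac1 thus lay furthest below the median of their quintile, and the part of length in these ratios was not tested. The 4 similar libraries were each set against the mean of the others in the same way. There the Spearman correlation was -0.18 for siRNA210, 0.10 for NC replicate 2, 0.044 for siRNA596 replicate 1 and -0.00089 for NC replicate 1. The part of length was not tested there either.

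**Figure D4:**
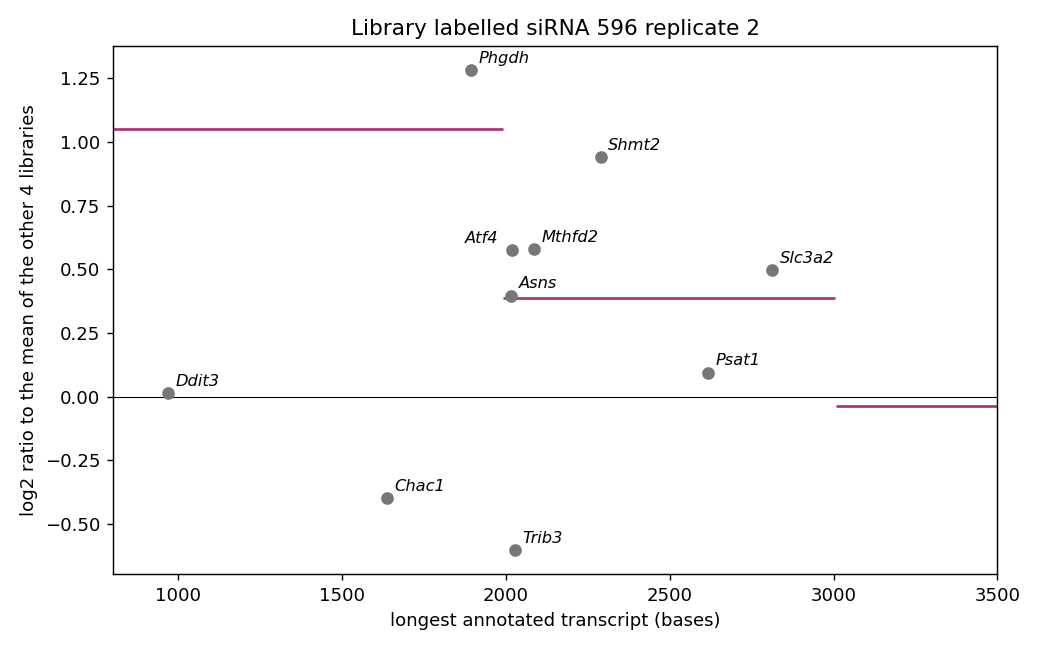
Log2 ratio of the library labelled siRNA596 replicate 2 to the mean of the other 4 (vertical axis) against the longest annotated transcript of each of the 10 genes (horizontal axis, bases). Horizontal lines are medians of all genes in a quintile of transcript length, at 1.05, 0.39 and -0.04 for the shortest 3 quintiles, and Ddit3, Chac1 and Trib3 lie furthest below their line.

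Among 34 other targets of ATF4 fixed as a list, 33 passed the filter in the 4 libraries, 21 with a log2 fold change above 0 and 12 below. The median was 0.12. Of all 15867 genes tested, 7850 were above 0 and 8017 below. Ddit4, an inhibitor of mTORC1 that responds to stress, was at 229 and 184 CPM in NC, 285 with siRNA210 and 235 in siRNA596 replicate 1. Its log2 fold change was 0.33 ± 0.12 (SE) with an unadjusted *P* of 0.0242, and its level in the library labelled siRNA596 replicate 2 was 79.2 CPM. Mthfd1l, a mitochondrial formate-producing enzyme, was at 235 and 207 CPM in NC, 264 with siRNA210 and 246 in siRNA596 replicate 1, with a log2 fold change of 0.21 ± 0.09 and an unadjusted *P* of 0.0465. Both had an edgeR adjusted *P* of 0.967. They were the 2 of 33 genes (6.06%) with an unadjusted *P* under 0.05 in edgeR, beside 3.30% of all genes. DESeq2 gave these and Cebpb, a partner of ATF4 on DNA, with an unadjusted *P* of 0.0464. The most extreme log2 fold changes of the list were 0.52 for Soat2 and 0.39 for Cdsn, and -0.32 for Slc7a3 and -0.17 for Cth, none of which passed. With 5 libraries 0 of 33 had an unadjusted *P* under 0.05 in edgeR, and the median was 0.01.

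The genes upstream of ATF4 and the neighbouring branches gave 0 genes at an unadjusted *P* of 0.05 in edgeR with 4 and with 5 libraries. The list of eIF2alpha kinases and regulators had 19 genes, with eIF2 and eIF2B subunits and the separate factor eIF2A among them. Of these 19 genes, 6 were above 0 and 13 below in the 4 libraries, with a median of -0.07. The highest were the eIF2B subunit Eif2b4 (0.17) and Eif2ak3 (0.12), which encodes PERK, and the lowest were Eif2b3 (-0.27) and the GCN2 inhibitor Impact (-0.21). The 20 aminoacyl-tRNA synthetases, which charge tRNAs and many of which ATF4 can raise, had log2 fold changes between -0.09 (Hars1) and 0.08 (Cars1), with Wars1 at -0.08 and a median of -0.01. The list of IRE1 and ATF6 targets, for the other branches of the unfolded protein response, had 19 genes. The genes of IRE1 and ATF6 themselves are among these and are counted with the targets throughout. Of the 19, 16 were above 0 and 3 below, with a median of 0.09. Beside them stand 7850 of all 15867 genes above 0 and 8017 below. For 14 of 18 of these targets of at least 5 CPM, NC replicate 2 was the lowest of the 4 libraries, as for 36.7% of all genes. The highest were Xbp1 (0.20), the transcription factor spliced by IRE1, and Sdf2l1 (0.16), and the lowest were Derl3 (-0.15) and Sel1l (-0.10).

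The lists differed in how NC replicate 2 stood to NC replicate 1. The median log2 ratio of NC replicate 2 to NC replicate 1 was -0.18 for the 10 genes, -0.21 for 29 other ATF4 targets of at least 5 CPM, -0.15 for 18 IRE1 and ATF6 targets, -0.01 for the synthetases and 0.12 for the eIF2alpha kinases and regulators, beside -0.0031 for all genes. Of the other ATF4 targets, 6 of 29 (20.7%) were lower in NC replicate 2 by more than 1.5-fold, beside 2.87% of all genes. So were 2 of the 10 genes, but 0 of the synthetases, the IRE1 and ATF6 targets or the eIF2alpha kinases and regulators. NC replicate 2 was the lowest of the 4 libraries for 14 of 18 IRE1 and ATF6 targets and 17 of 29 other ATF4 targets, but for 3 of 19 eIF2alpha kinases and regulators and 7 of 20 synthetases, against the 36.7% of all genes given above.

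**Figure D5:**
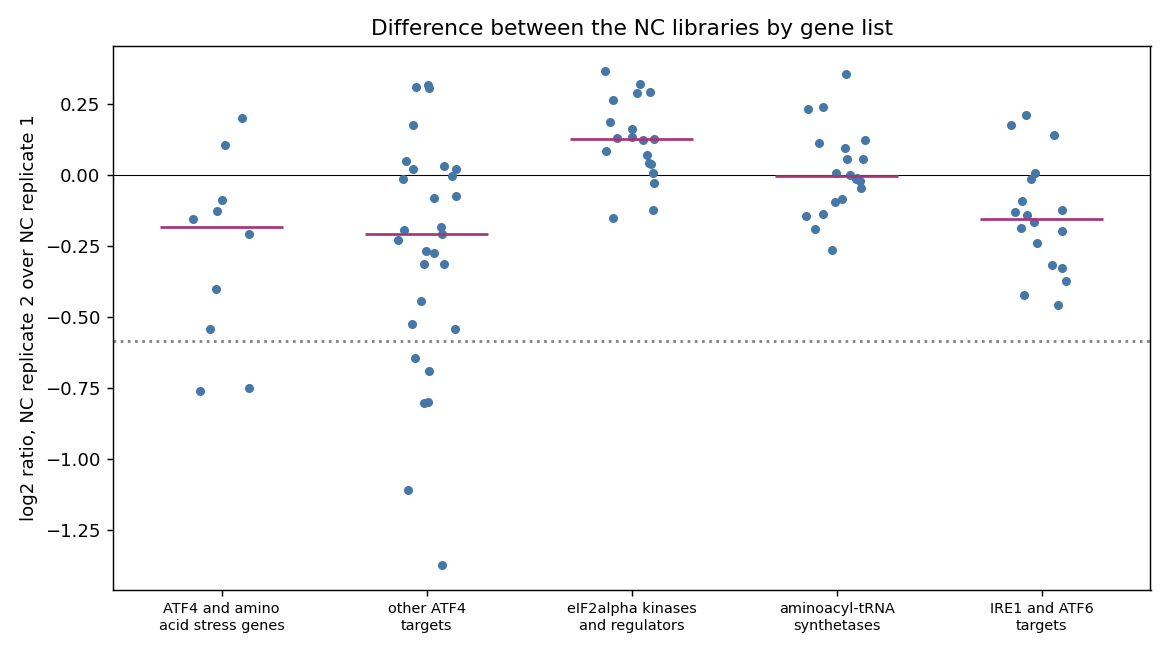
Log2 ratio of NC replicate 2 to NC replicate 1 (vertical axis) for each gene of at least 5 CPM in 5 lists; the points are genes, spread sideways for legibility, the short lines are medians, and the dotted line marks a level lower by 1.5-fold. The points under the dotted line are 2 of the 10 genes and 6 of 29 other ATF4 targets.

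The genes whose pattern was most like that of Atf4 were found by the Euclidean distance between log2 CPM values, each taken relative to the NC mean, over the 5 libraries and among genes of at least 5 CPM. The nearest were Rilpl1 at a distance of 0.0345, Pld3 at 0.0516, Wdr4 at 0.0524, Gon7 at 0.0567 and Pdlim1 at 0.0718. On this scale Atf4 was at 0.09 with siRNA210, -0.10 in siRNA596 replicate 1 and 0.57 in the library labelled siRNA596 replicate 2, and Rilpl1 was at 0.06, -0.11 and 0.58. None of the 5 is among the 10 genes or on the lists above. All 5, like Atf4, deviated furthest from the NC mean in the library labelled siRNA596 replicate 2, by 0.55 to 0.61. Since they were picked for closeness to Atf4 over these same libraries, this shared deviation follows from the choice.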

How the data were processed

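The deposited counts are unnormalized integers per Ensembl gene that the authors made, per the labels, with HISAT2 2.1.0, SAMtools 1.7 and featureCounts 2.0.1 on GRCm38. The strand setting and the treatment of multi-mapping reads are not given in the sources used here. Among counts of 1 to 10, between 63.7% and 69.7% were even. A signal column deposited by the authors, the mean of counts scaled by DESeq2 1.26.0, served only to see which libraries it came from: it matched the 4 libraries without the library labelled siRNA596 replicate 2 within 0.0977%. The fold changes and *P*-values of the authors' comparison in that table were not used.

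Genes were named from GENCODE M21 (99.53% of identifiers). A second identifier that carries the name Ddit3 had 0 counts in every library. Counts were normalized by TMM, filtered by filterByExpr and fitted on all genes with the quasi-likelihood test of edgeR 4.0.16 in R 4.3.3. Adjusted *P*-values are Benjamini-Hochberg over all genes tested, and confidence intervals are at 95%. Single libraries were compared as ratios of CPM over genes averaging 5 CPM or more. DESeq2 1.42.0 and offsets for exon length and GC content (mgcv 1.9.3) were alternatives, as were other scalings, other filters, robust fitting and each library left out. Scripts for the tests were tested on simulated data. Figures used matplotlib 3.10.9.

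The 10 genes, the lists and the use of 4 libraries were chosen with earlier results of these data known. Beside the 10 genes and Gas5, the genes named are those of each list with an unadjusted *P* under 0.05 (up to 3 in each direction), the 2 highest and 2 lowest of each list in the 4 libraries, and the 5 nearest to Atf4. A gene that falls under this rule is not named here. Genes named under the other observations were chosen after their values were seen.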

Additional observations from a re-analysis of the deposited data

How the results depend on the processing

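Of the 10 genes, 0 had an unadjusted *P* under 0.05 in KD against NC under the alternative tests, scalings, filters, robust fit and offsets for length and GC content, with 4 or 5 libraries. Leaving out a library in turn gave 0 to 5 genes with 4 libraries, the 5 without NC replicate 1, and 0 with 5 libraries. The count of all genes past 2-fold and an unadjusted *P* of 0.05, 139 in the 4 libraries, was 67 with DESeq2, 282 with no filter and 73 with at least 10 counts in every library, and 125 to 374 when a library was left out, the 374 without NC replicate 1.

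Directions near 0 turned with the libraries used. When each library was left out of the 4 in turn, the log2 fold change ran from -0.11 to 0.084 for Atf4, -0.064 to 0.68 for Ddit3, -0.15 to 0.61 for Trib3, -0.065 to 0.14 for Asns, -0.068 to 0.47 for Chac1, -0.17 to 0.032 for Phgdh, -0.015 to 0.38 for Slc3a2, -0.078 to 0.028 for Shmt2 and -0.095 to 0.059 for Mthfd2. With 5 libraries it ran from -0.0069 to 0.35 for Atf4, -0.10 to 0.65 for Ddit3, -0.35 to 0.41 for Trib3, -0.22 to 0.33 for Chac1, -0.072 to 0.74 for Phgdh, -0.027 to 0.54 for Shmt2 and -0.021 to 0.31 for Mthfd2. Scaling by library size alone turned Chac1 (-0.049) and Psat1 (-0.011) with 5 libraries, and the offsets turned Chac1 (-0.12). The smallest adjusted *P* of the 10 genes over all alternatives was 0.207 with 4 libraries and 0.87 with 5.

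In the library labelled siRNA596 replicate 2, scaling by library size alone gave a median log2 ratio of -0.26 over all genes in place of 0.01, with Psat1 at -0.17 and Ddit3 at -0.25. With the offsets the median of all genes was 0.26, and Trib3 at -1.06 was past 2-fold in place of Phgdh at 0.90. The number of genes lower in NC replicate 2 by more than 1.5-fold was 2 under each scaling, an alternative chosen after seeing the data.

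With the replicate block in siRNA596 against NC, 0 of the 10 genes had an unadjusted *P* under 0.05 in edgeR, beside 428 of all genes (2.7%) and 41 without the block, with 0 adjusted calls. Both fits included the library labelled siRNA596 replicate 2. Deviations of libraries with the same number correlated at 0.09 across genes, and the labels do not say that a number marks a shared culture. The depth behind each of the 10 genes was at least 886 counts a library.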

Other observations

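The 6 other ATF4 targets that were lower in NC replicate 2 by more than 1.5-fold were Atf3, Gdf15, Ppp1r15a, Cdsn, Slc7a11 and Cebpb. They are named after their values were seen. Of all genes of at least 5 CPM, 2.87% were lower by that much. Atf3, a stress-induced transcription factor, was at 43.9 CPM in NC replicate 1, 16.9 in NC replicate 2, 39.9 with siRNA210 and 35.1 in siRNA596 replicate 1. Gdf15, a secreted stress cytokine, was at 16.0 and 7.43 CPM in NC, 14.1 with siRNA210 and 14.95 in siRNA596 replicate 1. Ppp1r15a, which encodes the GADD34 subunit that returns eIF2alpha to its unphosphorylated form, was at 42.6 and 24.5 CPM in NC, 45.4 with siRNA210 and 39.4 in siRNA596 replicate 1.

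NC replicate 2 held 57.4% of the Cdsn level of NC replicate 1, 62.0% of Slc7a11, the cystine transporter, and 64.0% of Cebpb, a partner of ATF4 on DNA. In the library labelled siRNA596 replicate 2 the 6 genes did not move together, since Ppp1r15a was at 79.2 CPM and Cebpb at 112 CPM, above every other library, while Atf3 was at 12.2 CPM, below every other library. None of the 6 had an unadjusted *P* under 0.05 in KD against NC by edgeR with 4 or 5 libraries, and DESeq2 gave Cebpb an unadjusted *P* of 0.0464 with 4. No explanation was tested for this difference between the NC libraries.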
